A study of Ovis aries with 23 samples.

Results

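RNA-seq profiles of the pituitary pars tuberalis (PT) after 7 days of long photoperiods (LPs) were compared with profiles from short photoperiods (SPs). The comparison takes in the 5 samples labelled SP and the 6 labelled LP day 7, 11 of the 23 samples in the series, and it was made across all expressed genes. All 11 samples came from neutered male Scottish blackface sheep with no other treatment in the labels, and the photoperiod group was the only labelled difference between them. Ages were not given in the labels. The remaining 12 samples, from LP day 1 and LP day 28, are used only to place the day 7 values in time. The labels number the samples within a group without naming animals, so that p-values measure the spread between samples.

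The PT is the part of the pituitary that wraps the stalk and reads day length. Its thyrotrophs carry receptors for melatonin, the hormone of the night, and on LPs they raise thyrotropin, made of the subunits TSHB and CGA, which acts on the neighboring hypothalamus to increase local thyroid hormone. EYA3 is a transcriptional co-activator of TSHB on LPs, and chromogranin A (CHGA) is a secretory granule protein that these cells express more strongly on SPs.

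Total counts per sample lay between 2741520 and 3691321 (median 3231618 on SPs and 3444196 at LP day 7), and 16568 to 17079 of 25197 genes had at least 1 count. A gene with 3 counts, taken as the detection floor, stood at 0.813 to 1.09 CPM (counts scaled to a common library size), which covers counting error only. CGA, made by PT thyrotrophs and also by cells of the pars distalis, stood at 5200 to 9410 CPM in all 11 samples. The melatonin receptor MTNR1A ranged from 0.537 to 41.5 CPM, and prolactin (PRL), the product of pars distalis lactotrophs, took 2.35% to 14% of all counts. Summed over its 10 paired markers, the level of the pars distalis cells overlapped between the groups (35100 to 141000 CPM on SPs and 46600 to 177000 CPM at LP day 7), and none of the 10 was called in the test of all genes. In whole tissue, a change in the number of cells of a type and a change in RNA per cell cannot be told apart.

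A set of 40 of 15030 tested genes (0.266%) was differentially expressed (DE) after 7 LPs by edgeR's quasi-likelihood test, with a false discovery rate (FDR, Benjamini-Hochberg adjusted) under 0.05. Higher at LP day 7 were 29 genes (0.193%), with a median log2 fold change of 0.89, and 11 genes were lower (0.0732%), with a median of -0.64. The median over all tested genes was -0.007. The groups did not overlap in 36 of the 40 genes, against 306 of all tested genes (2.04%). Changes over 2-fold numbered 11 among the higher genes and 3 among the lower ones. On SPs the median level was 89.1 CPM for the lower genes, 33.9 CPM for the higher genes and 22 CPM for all tested genes. The unadjusted p was under 0.05 for 2157 genes (14.4%), 1222 of them higher (8.13%) and 935 lower (6.22%).

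How many genes passed depended on single samples and on the fit. The count was 7, 8 and 12 without SP sample 4, 2 or 1 and 66 without SP sample 5. It was 10, 20, 12, 15 and 113 without LP day 7 sample 1, 3, 4, 5 or 6. Among the 40 genes, higher genes made up 72.5%, or 95.8% of 24 genes when counts were scaled by library size alone and 84.8% of 33 with upper quartile factors. With the level of the pars distalis gene GH1 in the fit, 71 genes were DE, 35 of them among the 40. The sign of all 40 genes was kept in every alternative in which they were tested, which their choice on the same samples favors. Of the 40, 24 had a paired symbol (20 higher and 4 lower). Symbols could be paired only for genes that the study listed as DE somewhere, in part on these samples, and 2.21% of the 1085 tested genes with a symbol were DE against 0.115% of the 13945 without. Counts within named gene groups are therefore not independent evidence of a direction.

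**Figure D1:**
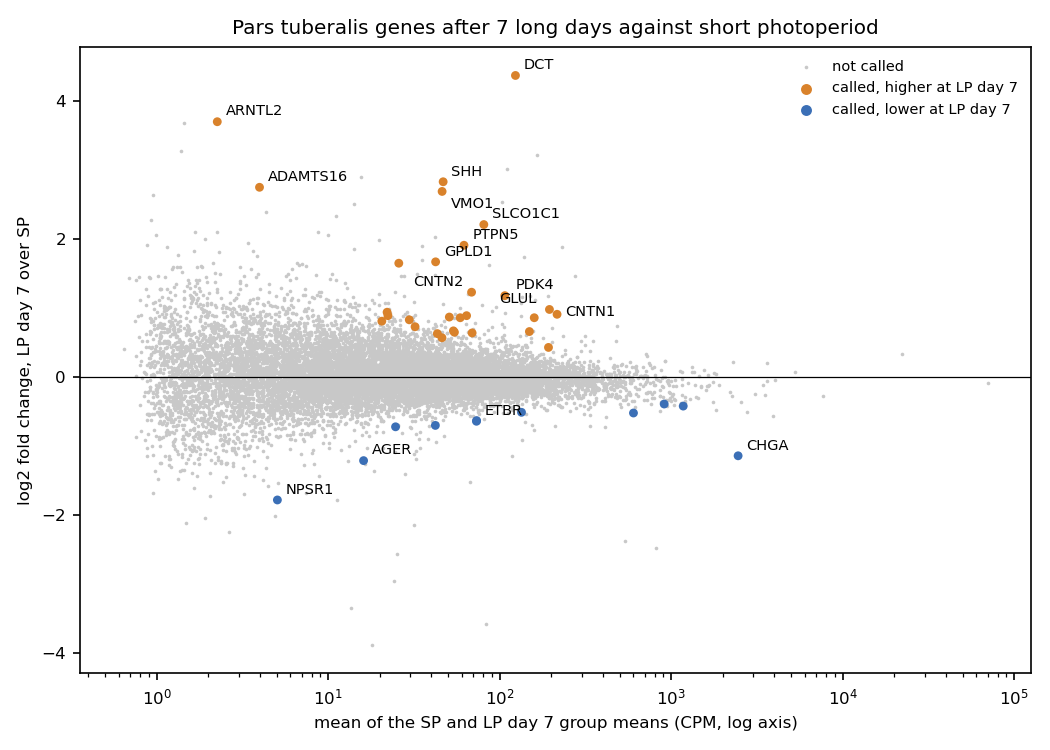
Log2 fold change at LP day 7 over SPs (vertical axis) against the mean of the 2 group means in CPM (horizontal axis, logarithmic) for the 15030 tested genes, with the 29 higher DE genes in orange and the 11 lower ones in blue. DCT stands highest at a log2 fold change of 4.37, and CHGA is the most abundant DE gene.

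Sonic hedgehog (SHH, ENSOARG00000006942), a secreted morphogen that patterns the pituitary and nervous system, had the lowest FDR of all genes. It was expressed at 12.7, 9.48, 8.37, 8.75 and 17.8 CPM in SP samples 1 to 5, and at 65.5 (lowest), 80.0 (median) and 105 CPM (highest) at LP day 7. Every LP day 7 sample thus exceeded every SP sample by a wide gap. The mean was 11.4 ± 3.95 CPM (SD, n = 5) on SPs and rose to 82.2 ± 16.4 CPM (SD, n = 6), a log2 fold change of 2.83 (standard error [SE] 0.20, FDR 4.44e-06). SHH was the only tested gene of the 22 listed for the hedgehog pathway, because the others had no paired symbol.

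SLCO1C1 (ENSOARG00000020436) encodes a membrane transporter that carries thyroxine into brain cells. Its 5 SP samples had 29.1, 24.7, 23.7, 26.3 and 39.2 CPM, and the LP day 7 samples had 96.9 (lowest), 135 (median) and 180 CPM (highest). There was no overlap, and the log2 fold change was 2.21 (SE 0.18, FDR 1.47e-05). It was the only DE gene among 7 tested genes of thyroid hormone transport and action. The deiodinase DIO2, which makes the active hormone, had 10 ± 5.26 CPM (SD, n = 5) on SPs and 19.4 ± 8.52 CPM (SD, n = 6) at LP day 7 (log2 fold change 0.96, SE 0.35, FDR 0.227). The receptor THRA (-0.21, SE 0.09, FDR 0.282), the most abundant of the list, was not DE either. The list's median log2 fold change was 0.30.

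The gene with the largest change was DCT (ENSOARG00000000618), dopachrome tautomerase, an enzyme of melanin synthesis. SP samples 1 to 5 had 11.7, 1.69, 13.6, 5.83 and 22.9 CPM, against 160 (lowest), 232 (median) and 338 CPM (highest) at LP day 7. The lowest LP day 7 sample was well above the highest SP sample, and the log2 fold change was 4.37 (SE 0.37, FDR 2.01e-05), or 20.7-fold. Of the other 3 tested pigment cell genes none was DE, and their levels were close between the groups. TYRP1, another melanin enzyme, had 14.3 ± 3.83 CPM (SD, n = 5) and 13.8 ± 3.77 CPM (SD, n = 6), with a log2 fold change of -0.05 (SE 0.22). KIT (-0.21, SE 0.28), the stem cell factor receptor, and the transcription factor SOX10 (0.33, SE 0.42) likewise differed by less than their SEs.

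VMO1 (ENSOARG00000007112), named after a protein of the egg's vitelline membrane, was at 15.1, 10.5, 15.6, 8.75 and 11.6 CPM on SPs, and at 29.2, 68.8 and 152 CPM (lowest, median and highest) at LP day 7. All LP day 7 samples were higher, although spread over a wide range (log2 fold change 2.69, SE 0.35, FDR 0.003). ADAMTS16 (ENSOARG00000015446), a secreted metalloprotease, was close to the floor on SPs, at 0.265, 0.339, 2.02, 0.648 and 1.69 CPM, and had 4.45, 6.08 and 10.2 CPM at LP day 7. Its counts summed to 17 over the SP samples and 146 over those at LP day 7, a ratio of 7.13 per total count (95% exact interval 4.3 to 12.6, for counting error only; FDR 0.0232). The 5 tested matrix proteases and inhibitors fixed as a list, which ADAMTS16 was not part of, included no DE gene. SERPINE2, the most abundant, had 186 ± 36.1 CPM (SD, n = 5) and 204 ± 63.8 CPM (SD, n = 6).

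The contactins CNTN1 and CNTN2 are adhesion molecules of the immunoglobulin superfamily that act in axon growth and nerve contact. CNTN1 (ENSOARG00000019884) had 139, 139, 172, 133 and 165 CPM on SPs, and 229, 280 and 361 CPM (lowest, median and highest) at LP day 7. CNTN2 (ENSOARG00000003261) had 39.2, 31.5, 38.4, 37.6 and 57.8 CPM on SPs and 68.4, 88.7 and 128 CPM at LP day 7. Neither gene overlapped between the groups, and the log2 fold changes were 0.91 (SE 0.12, FDR 0.00336) for CNTN1 and 1.23 (SE 0.19, FDR 0.0131) for CNTN2. CNTN2 was the only DE gene among 11 tested axon guidance genes, whose median log2 fold change was 0.20. The adhesion molecule L1CAM, the most abundant of them, had 438 ± 68.7 CPM (SD, n = 5) and 431 ± 30.0 CPM (SD, n = 6). The semaphorin receptor PLXNA4 (1.03, SE 0.21, FDR 0.0563) and KAL1, the secreted protein anosmin (2.9, SE 0.68, FDR 0.0729), missed the threshold.

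Several higher genes encode signaling and metabolic enzymes. PTPN5 (ENSOARG00000009168), a neuronal tyrosine phosphatase, had 18.5, 20.7, 35.8, 12.3 and 42 CPM on SPs and 71.2, 86.6 and 158 CPM (lowest, median and highest) at LP day 7, without overlap (log2 fold change 1.91, SE 0.28, FDR 0.0121). GLUL (ENSOARG00000018757), glutamine synthetase, had 101, 115, 167, 96.3 and 173 CPM on SPs and 200, 268 and 312 CPM at LP day 7, again without overlap (0.98, SE 0.17, FDR 0.0314). PDK4 (ENSOARG00000003501), a kinase that restrains the pyruvate dehydrogenase complex, had 107, 38.9, 77.3, 50.9 and 52.2 CPM on SPs and 103, 154 and 185 CPM at LP day 7. Here SP sample 1 lay above LP day 7 sample 5, and the log2 fold change was 1.18 (SE 0.22, FDR 0.0386). GPLD1 (ENSOARG00000006871), a phospholipase that releases anchored membrane proteins, also overlapped, with 32.7 CPM in SP sample 5 and 29.2 CPM in LP day 7 sample 3. Its mean was 20 ± 8.98 CPM (SD, n = 5) on SPs and rose to 64.6 ± 24.7 CPM (SD, n = 6), a log2 fold change of 1.67 (SE 0.31, FDR 0.0379).

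A further 8 named higher genes, described by their roles, rose by less than 2-fold. The vitamin C transporter SLC23A2, the RNA-binding splicing regulator MBNL2, the iron regulatory protein IREB2, the copine CPNE9, FAM171B and an entry listed as MEG3_2 had log2 fold changes between 0.86 and 0.94. KLF10, a zinc finger transcription factor, rose from 54.0 ± 8.71 CPM (SD, n = 5) on SPs to 84.1 ± 5.75 CPM (SD, n = 6; log2 fold change 0.64, SE 0.11, FDR 0.0314). SORL1, a sorting receptor of the endosome, had the smallest rise, 0.43 (SE 0.09, FDR 0.0477). IREB2 overlapped between the groups by SP sample 4 (19.1 CPM) and LP day 7 sample 6 (18.9 CPM), whereas the other 7 did not. Among the 9 higher genes without a symbol, ENSOARG00000003744 had the largest change (1.65, SE 0.29, FDR 0.0327) and ENSOARG00000017361 the lowest FDR (0.67, SE 0.11, FDR 0.0232).

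**Figure D2:**
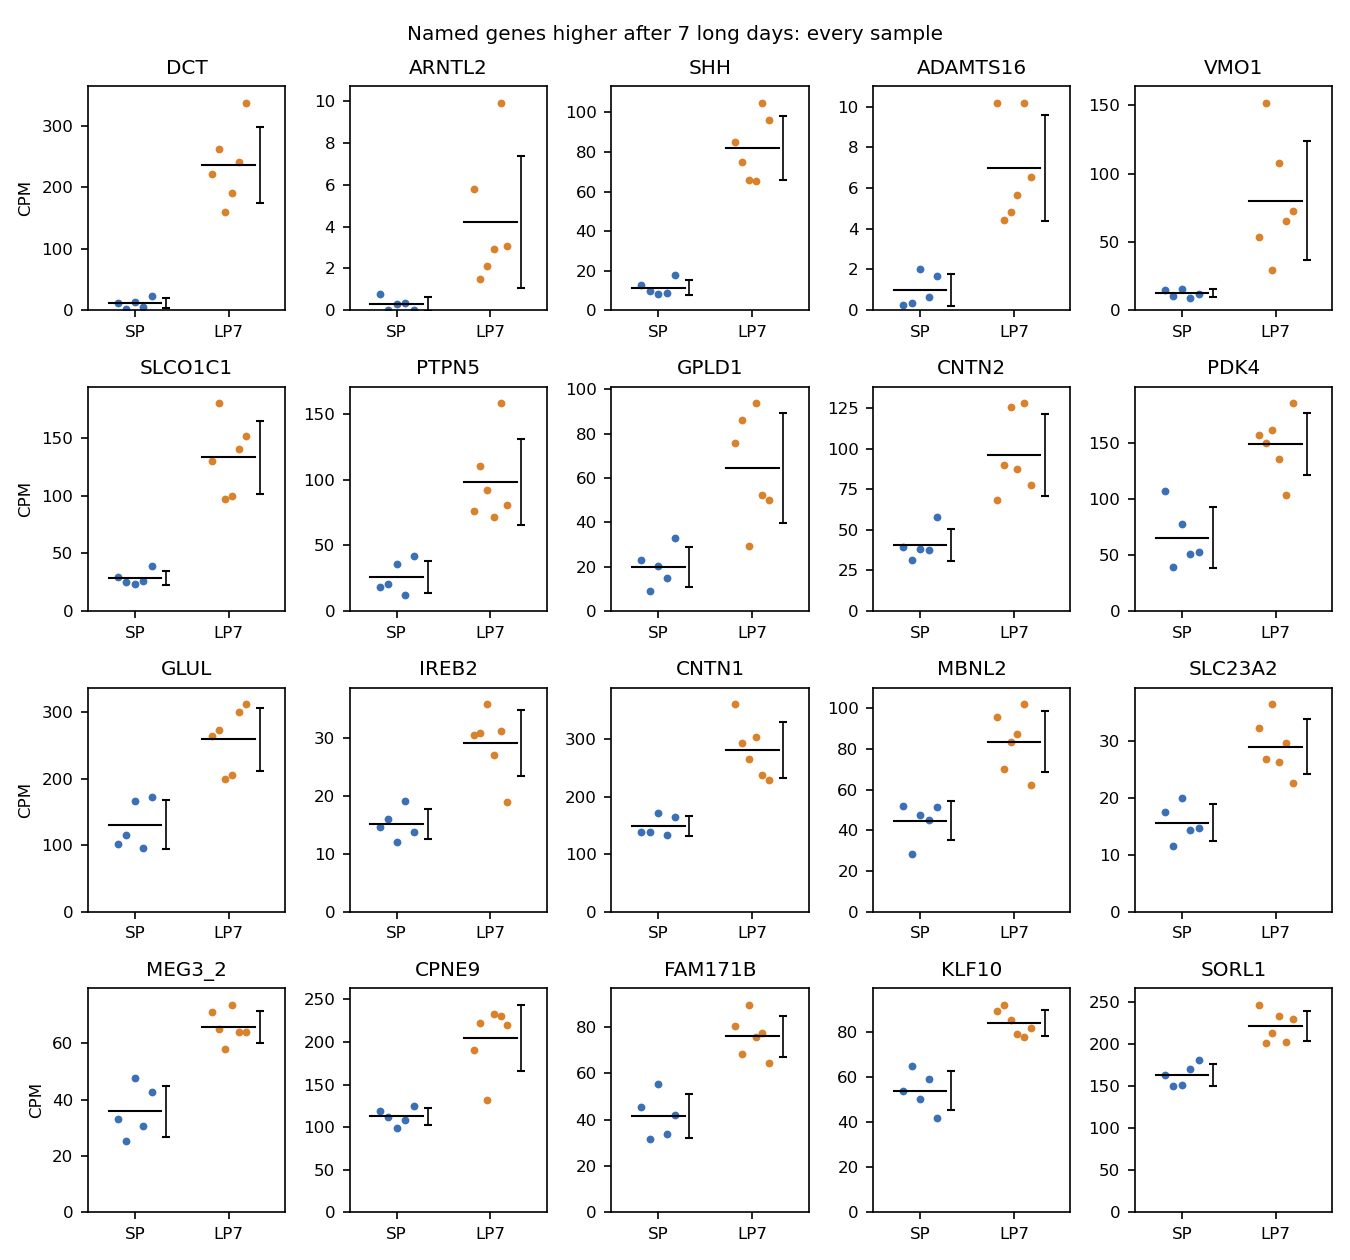
CPM (vertical axes, from 0) of the 20 named genes higher at LP day 7, one panel each, with a point for each of the 5 SP and 6 LP day 7 samples, a horizontal line at the group mean and a bar of 1 SD to either side. The groups are separate in 17 panels and overlap in GPLD1, PDK4 and IREB2.

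CHGA (ENSOARG00000013347) was the most abundant of the DE genes. Its levels were 4290, 3630, 2630, 2780 and 3590 CPM on SPs, and 1300 (lowest), 1450 (median) and 2070 CPM (highest) at LP day 7. Every LP day 7 sample was below every SP sample, and the log2 fold change was -1.14 (SE 0.14, FDR 0.00215), or 2.21-fold lower. CHGA was the only DE gene among 11 tested genes of granins and prohormone processing, a list with a median log2 fold change of 0.11. The related granin CHGB, of like abundance, had 3220 ± 298 CPM (SD, n = 5) and 2290 ± 420 CPM (SD, n = 6), and missed the threshold (-0.50, SE 0.11, FDR 0.0665). In the same list the neuropeptide precursor VGF (0.88, SE 0.29, FDR 0.178) and carboxypeptidase D (CPD; 0.83, SE 0.20, FDR 0.0776) had positive values that were not DE.

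NPSR1 (ENSOARG00000005903), the receptor of neuropeptide S, was low in all samples, at 4.24, 9.82, 5.48, 7.13 and 12.4 CPM on SPs and 1.27, 2.39 and 3.43 CPM (lowest, median and highest) at LP day 7. It did not overlap, and fell by 1.78 on the log2 scale (SE 0.35, FDR 0.0477), as the only DE gene among 13 tested neuroendocrine receptors and channels. AGER (ENSOARG00000000355), a multiligand receptor of the immunoglobulin superfamily, had 30.7, 25.1, 17.6, 19.4 and 19.2 CPM on SPs and 6.02, 9.52 and 15.1 CPM at LP day 7, without overlap (-1.21, SE 0.24, FDR 0.0477). The gene listed as ETBR (ENSOARG00000000158) had 84.5, 77.9, 107, 82.0 and 94.0 CPM on SPs and 48.6, 57.1 and 67.6 CPM at LP day 7 (-0.64, SE 0.11, FDR 0.0314). All 3 were thus lower in every LP day 7 sample. The other 7 lower genes had no symbol, and of these ENSOARG00000011897 (-0.72, SE 0.14, FDR 0.0477) and ENSOARG00000007637 (-0.70, SE 0.13, FDR 0.0357) had the largest changes.

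**Figure D3:**
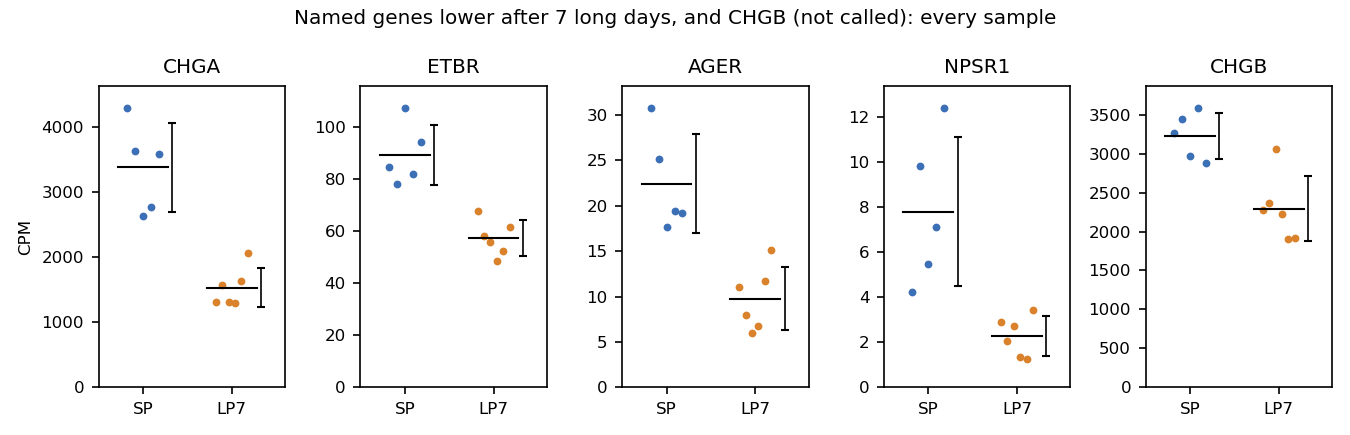
CPM (vertical axes, from 0) of the 4 named genes lower at LP day 7 and of CHGB, which was not DE, with a point per sample, the mean as a line and a bar of 1 SD to either side. The groups are separate for CHGA, ETBR, AGER and NPSR1, whereas the highest LP day 7 sample of CHGB, 3060 CPM, lies within the SP range of 2880 to 3580 CPM.

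Genes of the photoperiod relay differed in how uniform their change was. Of 11 tested genes only CHGA was DE, while 8 had positive log2 fold changes and the median was 0.73. EYA3 (ENSOARG00000003071) had 37.1, 23.0, 28.3, 36.0 and 35.0 CPM on SPs. At LP day 7 it had 969, 381 and 332 CPM in samples 1, 3 and 5, and 30.9, 39.2 and 41.2 CPM in samples 2, 4 and 6. The first 3 were far above all SP samples, and the last 3 overlapped them or lay just above. Over all samples the log2 fold change was 3.22 (SE 0.78, FDR 0.0777), which was not DE.

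The same samples were set apart by CRY1, a repressor of the circadian clock that follows the onset of melatonin in the PT. CRY1 had 23.8, 23.2 and 23.2 CPM in LP day 7 samples 1, 3 and 5, and 302, 298 and 229 CPM in samples 2, 4 and 6. On SPs it had 22.5 and 22.8 CPM in samples 1 and 3, and 206, 237 and 406 CPM in samples 2, 4 and 5. Low and high CRY1 thus occurred in both groups, with 3 of 5 SP samples and 3 of 6 LP day 7 samples over 100 CPM, and the time of day of sampling was not given in the labels. MTNR1A had 37.1, 24.1 and 41.5 CPM in the LP day 7 samples of low CRY1, and 1.48, 0.537 and 2.06 CPM in the others, of which 0.537 CPM is under the floor. In SP samples 1 and 3 it had 17.2 and 19.9 CPM, and at most 2.54 CPM in the other SP samples. TSHR, the thyrotropin receptor, went the opposite way at LP day 7, with 11.7 to 23.4 CPM in odd-numbered and 89.9 to 115 CPM in even-numbered samples.

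**Figure D4:**
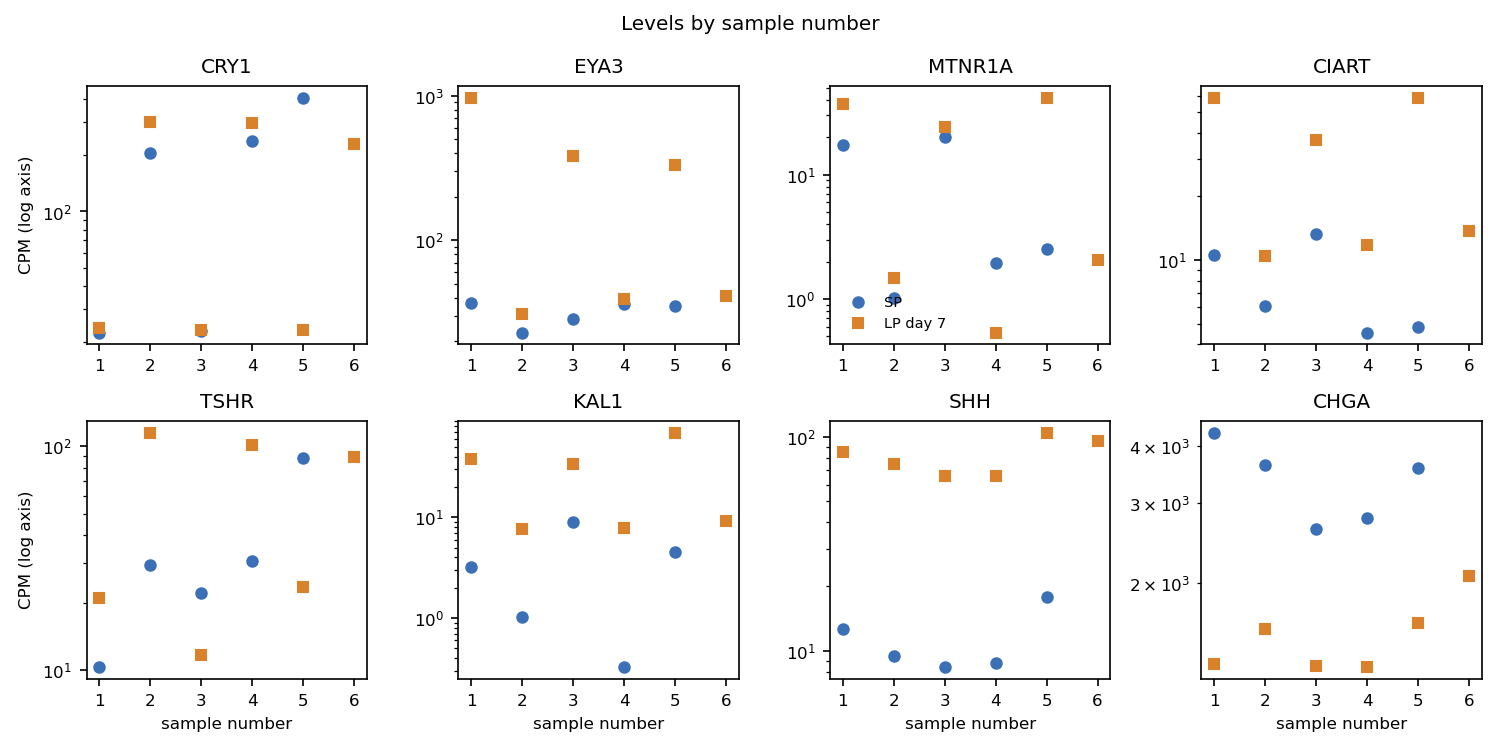
CPM (vertical axes, logarithmic) by sample number for 8 genes, with circles for the SP samples and squares for the LP day 7 samples. CRY1, EYA3, MTNR1A, CIART, TSHR and KAL1 divide the LP day 7 samples into odd and even numbers, whereas SHH and CHGA separate the SP from the LP day 7 samples at every number.

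The comparison was repeated within odd-numbered samples (3 of each group) and even-numbered samples (2 SP and 3 LP day 7), a division chosen after these values were seen. For the genes that showed it, the values by number are therefore a description with no test. EYA3 had a log2 fold change of 4.05 (SE 0.38) in odd-numbered samples and 0.32 (SE 0.23) in even-numbered ones. TSHR had 1.75 (SE 0.16) in even-numbered samples. In odd-numbered ones its sign rested on SP sample 5, of high CRY1 and 88.3 CPM TSHR, with a log2 fold change of -1.10 (SE 0.62) with that sample and 0.19 (SE 0.39) without it. Of 15030 tested genes, none passed FDR 0.05 for a change from SPs that differed between odd- and even-numbered samples (edgeR's quasi-likelihood test). In the same test 818 of the 15030 had an unadjusted p under 0.05. It concerns the change from SPs and not the levels by number.

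Several of the 40 genes changed in both sets of samples. They were called on these same samples, so this is not independent evidence. DE in odd-numbered samples were 37 genes (0.246%), 7 of them among the 40, and in even-numbered samples 34 genes (0.223%), 13 of them among the 40. SHH rose by 2.71 (SE 0.27, FDR 0.003) and 3.1 (SE 0.23, FDR 0.000371) on the log2 scale, SLCO1C1 by 1.99 (SE 0.21, FDR 0.00493) and 2.49 (SE 0.24, FDR 0.00213), DCT by 3.69 (SE 0.26, FDR 0.000542) and 6.09 (SE 0.38, FDR 0.00011), and VMO1 by 1.80 (SE 0.29, FDR 0.0396) and 3.52 (SE 0.33, FDR 0.0018) in odd- and even-numbered samples. Without SP sample 5, VMO1 was not DE in odd-numbered samples (1.67, SE 0.33, FDR 0.146), where 22 genes were DE in place of 37. CHGA fell by 1.31 (SE 0.17, FDR 0.0153) in odd-numbered samples, and its value was -0.96 (SE 0.17, FDR 0.0611) in even-numbered ones. With the parity of the sample number in the fit of all 11 samples, 334 genes were DE (2.22%), 236 higher and 98 lower, and these included all 40. With the CRY1 level in the fit instead, 106 genes were DE (0.705%), again including all 40. Both parity and the CRY1 level were chosen after values of these data were seen, so these counts are descriptive.

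The circadian clock genes included 1 DE gene of 14 tested, and 12 had positive values, with a median log2 fold change of 0.38. ARNTL, a clock activator, had a negative value and was not DE (-0.63, SE 0.19, FDR 0.162). It averaged 49 ± 16.3 CPM (SD, n = 5) on SPs and 31.7 ± 5.82 CPM (SD, n = 6) at LP day 7. The DE gene was ARNTL2 (ENSOARG00000019779), a paralog of the clock activator ARNTL, with 3, 0, 1, 1 and 0 counts on SPs, none above the floor, and 5 to 39 counts at LP day 7. Its 5 summed SP counts against 91 at LP day 7 gave a ratio of 15.1 per total count (95% exact interval 6.24 to 47.6, for counting error only; FDR 0.0463). CIART, a clock repressor, had 10.6, 6.09, 13.3, 4.54 and 4.80 CPM on SPs, and 37.0 to 58.6 CPM in odd-numbered and 10.4 to 13.7 CPM in even-numbered LP day 7 samples. It was not DE over all samples (1.99, SE 0.49, FDR 0.0852), but was with parity in the fit (1.99, SE 0.28, FDR 0.00327). The nuclear receptor NR1D1 had 257 to 458 CPM in odd-numbered and 67.7 to 84.8 CPM in even-numbered LP day 7 samples, against 64.3 to 145 CPM on SPs. With parity in the fit, 5 clock genes were DE, all higher, namely ARNTL2, CIART, NR1D1, NR1D2 and BHLHE41. With the CRY1 level in the fit instead, only ARNTL2 and CIART of these were DE, and the FDR was 0.143 for NR1D1, 0.0848 for NR1D2 and 0.168 for BHLHE41. EYA3 (2.52, SE 0.60, FDR 0.0396), KAL1 (3.16, SE 0.32, FDR 0.00017) and PLXNA4 (1.07, SE 0.20, FDR 0.0204) were also DE and higher in the fit with parity, and CHGB was DE and lower (-0.50, SE 0.11, FDR 0.0318). With the CRY1 level, KAL1 (FDR 0.021) and PLXNA4 (FDR 0.047) were DE, whereas EYA3 (1.99, SE 0.66, FDR 0.176) and CHGB (FDR 0.0519) were not. The division by number was seen in CIART, NR1D1, EYA3 and KAL1 themselves. Their FDRs with parity or the CRY1 level in the fit are therefore descriptive. For the other genes named in these fits the FDRs are descriptive as well, because the fits were chosen after values were seen.

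The thyrotropin subunits were not DE. TSHB had 207, 664, 47, 625 and 265 CPM on SPs and 289 (lowest), 559 (median) and 1150 CPM (highest) at LP day 7. The groups overlapped, and the log2 fold change was 0.74 (SE 0.48, FDR 0.51). TSHB also divided by number, with 47 to 265 CPM in odd- and 625 to 664 CPM in even-numbered SP samples. At LP day 7 it had 289 to 452 CPM in odd- and 666 to 1150 CPM in even-numbered samples. The lowest LP day 7 sample was barely above the highest SP sample in each set (289 against 265 and 666 against 664 CPM). The sets are very small and were divided after values were seen, and how many other genes separate this way was not counted. The gaps are therefore a description with no test, and do not show a rise of TSHB. TSHB was not DE with parity in the fit (0.77, SE 0.31, FDR 0.216). CGA had 8380 ± 892 CPM (SD, n = 5) and 6970 ± 1400 CPM (SD, n = 6; -0.27, SE 0.12, FDR 0.322). PITX1, a pituitary transcription factor, had 108 ± 55.6 CPM (SD, n = 5) and 97.5 ± 16.8 CPM (SD, n = 6). Together with EYA3, MTNR1A, TSHR and CHGA, these genes make up the 7 tested markers of the PT thyrotroph, of which CHGA alone was DE. Their summed level did not overlap between the groups, at 11500 to 13600 CPM on SPs and 8070 to 11300 CPM at LP day 7. CGA and CHGA made up most of it. CHGA was called for its fall in these same samples, so the sum is not independent evidence of a lower marker level. CGA alone overlapped between the groups, at 7300 to 9410 CPM on SPs and 5200 to 9130 CPM at LP day 7. EYA3, TSHB, MTNR1A and TSHR had positive log2 fold changes.

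No gene was DE in the other fixed lists, read against 0.266% of all tested genes. List members all have a symbol, and of the tested genes with a symbol 2.21% were DE. Among 19 tested genes of collagens, laminins and basement membrane, the median log2 fold change was 0.09, with COL1A2 at 659 ± 182 CPM (SD, n = 5) and 671 ± 98.7 CPM (SD, n = 6). The WNT pathway (5 tested, median -0.19), the BMP, TGF-beta and activin pathway (4, 0.10), cadherins and other adhesion genes (7, -0.11), secreted peptides and growth factors (15, 0.12), immediate-early genes of cAMP and calcium (8, 0.33) and ER translocation and transport (2, -0.03) had no DE gene either. All 5 tested cell division genes had positive values (median 0.50), from 0.19 for MKI67 to 0.88 for CCNB2. MKI67 had 7.87 ± 6.21 CPM (SD, n = 5) and 9.02 ± 2.41 CPM (SD, n = 6). TOP2A had 6.78 ± 2.49 CPM (SD, n = 5) and 11.2 ± 1.5 CPM (SD, n = 6), a log2 fold change of 0.72 (SE 0.24, FDR 0.183). A single gene of ER chaperones and the unfolded protein response, CREB3L2, was tested (1.07, SE 0.34, FDR 0.174).

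The 18 interferon response genes had positive log2 fold changes without exception, and a median of 1.18, but none was DE. Their summed level was 9920 CPM in LP day 7 sample 3 and 377 to 481 CPM in the other 5 LP day 7 samples. It was 2120 CPM in SP sample 3 and 362 to 478 CPM in the other 4. The high sums thus belonged to a single sample of each group. MX2, an antiviral GTPase of the list, was less concentrated, with 30.5, 5.08, 88.3, 14.3 and 11.6 CPM on SPs and 14.5 (lowest), 69.6 (median) and 805 CPM (highest) at LP day 7. It was chosen after its values were seen and was not DE (2.53, SE 0.95, FDR 0.233).

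Markers of other cell types were not DE in any list. Folliculostellate and glial cells (4 tested) had a summed level of 562 to 1220 CPM on SPs and 680 to 1120 CPM at LP day 7, with GFAP at 330 ± 214 CPM (SD, n = 5) and 356 ± 156 CPM (SD, n = 6). Tanycytes and ependyma (5 tested), which line the nearby ventricle, were at 828 to 1370 CPM and 582 to 926 CPM. This sum was carried by VIM, at 1000 ± 233 CPM (SD, n = 5) and 716 ± 120 CPM (SD, n = 6; -0.49, SE 0.15, FDR 0.15). The sums also overlapped for neurons (4 tested; 394 to 547 and 459 to 642 CPM), oligodendrocytes (3; 43.7 to 174 and 65.7 to 116 CPM), fibroblasts and meninges (11; 1660 to 3030 and 1640 to 2680 CPM), leukocytes (3; 166 to 881 and 161 to 506 CPM) and smooth muscle and pericytes (1, ABCC9; 3.56 to 12.1 and 5.14 to 33.4 CPM). Markers of endothelium and erythrocytes had no paired symbol.

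The other LP days place these changes in time. Comparisons of days 1, 7 and 28 with SPs share the same SP samples, so their values are given side by side. The genes followed here were called at day 7, which favors a larger difference from SPs on that day. No gene was DE at LP day 1 in edgeR's quasi-likelihood test (0 of 14920, 497 or 3.33% with an unadjusted p under 0.05), and 100 of 14929 (0.67%) were DE at LP day 28. LP day 1 samples 4 and 6 had only 307952 and 1852503 counts, which limits the calls at that day. At LP day 1 SHH (log2 fold change 1.71, SE 0.35) and SLCO1C1 (1.28, SE 0.25) had an FDR of 0.638 each. Their lowest LP day 1 samples, 18.3 and 45.6 CPM, lay above their highest SP samples, 17.8 and 39.2 CPM. For SHH this gap was narrow. Both genes were called at day 7 against the same SP samples, which also favors a separation at day 1. The separation is therefore a description with no test. SHH averaged 39.7 ± 21.8 CPM (SD, n = 6) at LP day 1, and 40.8 ± 11.7 CPM (SD, n = 6) at LP day 28, below its 82.2 CPM at day 7. SLCO1C1 had 69.0 ± 33.2 CPM (SD, n = 6) and 100 ± 14.4 CPM (SD, n = 6) on these days, against 133 CPM at day 7. CHGA had 2770 ± 732 CPM (SD, n = 6) and 1050 ± 243 CPM (SD, n = 6), and its day 7 mean of 1530 CPM lay between them.

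Day 7 was also compared directly with the other LP days. Against LP day 1, 3 of 14897 genes were DE (0.0201%), and all 3 were higher at day 7. DCT had 28.4 ± 15 CPM (SD, n = 6) at LP day 1 (log2 fold change from day 1 to day 7 of 3.07, SE 0.28, FDR 4.28e-05). VMO1 had 15.8 ± 6.64 CPM (SD, n = 6; 2.41, SE 0.37, FDR 0.0301). ADAMTS16 had 1.2 ± 0.708 CPM (SD, n = 6; 2.25, SE 0.36, FDR 0.0301), and its lowest LP day 7 sample exceeded its highest LP day 1 sample of 1.87 CPM. Only 1 of these 3 calls was kept without LP day 1 sample 1, 2, 3, 4 or 6, or without LP day 7 sample 4, 5 or 6, and LP day 1 sample 4 had only 307952 counts.

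From day 7 to day 28, 1 of 14890 genes was DE (0.00672%). DCT fell to 75.4 ± 22.8 CPM (SD, n = 6), a log2 fold change of -1.64 (SE 0.19, FDR 0.0016), and its highest LP day 28 sample, 110 CPM, was below its lowest LP day 7 sample. This call was kept without each sample in turn. SHH (-1, SE 0.17) and VMO1 (1.64, SE 0.29) had an FDR of 0.0633 each, with opposite signs. VMO1 averaged 248 ± 70.8 CPM (SD, n = 6) at LP day 28, and GPLD1 had 120 ± 34.5 CPM (SD, n = 6; 0.89, SE 0.23, FDR 0.324). PTPN5 had 53.4 ± 16.1 CPM (SD, n = 6) at LP day 28 (-0.87, SE 0.20, FDR 0.244), and ADAMTS16 had 2.06 ± 1.04 CPM (SD, n = 6; -1.71, SE 0.35, FDR 0.128).

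**Figure D5:**
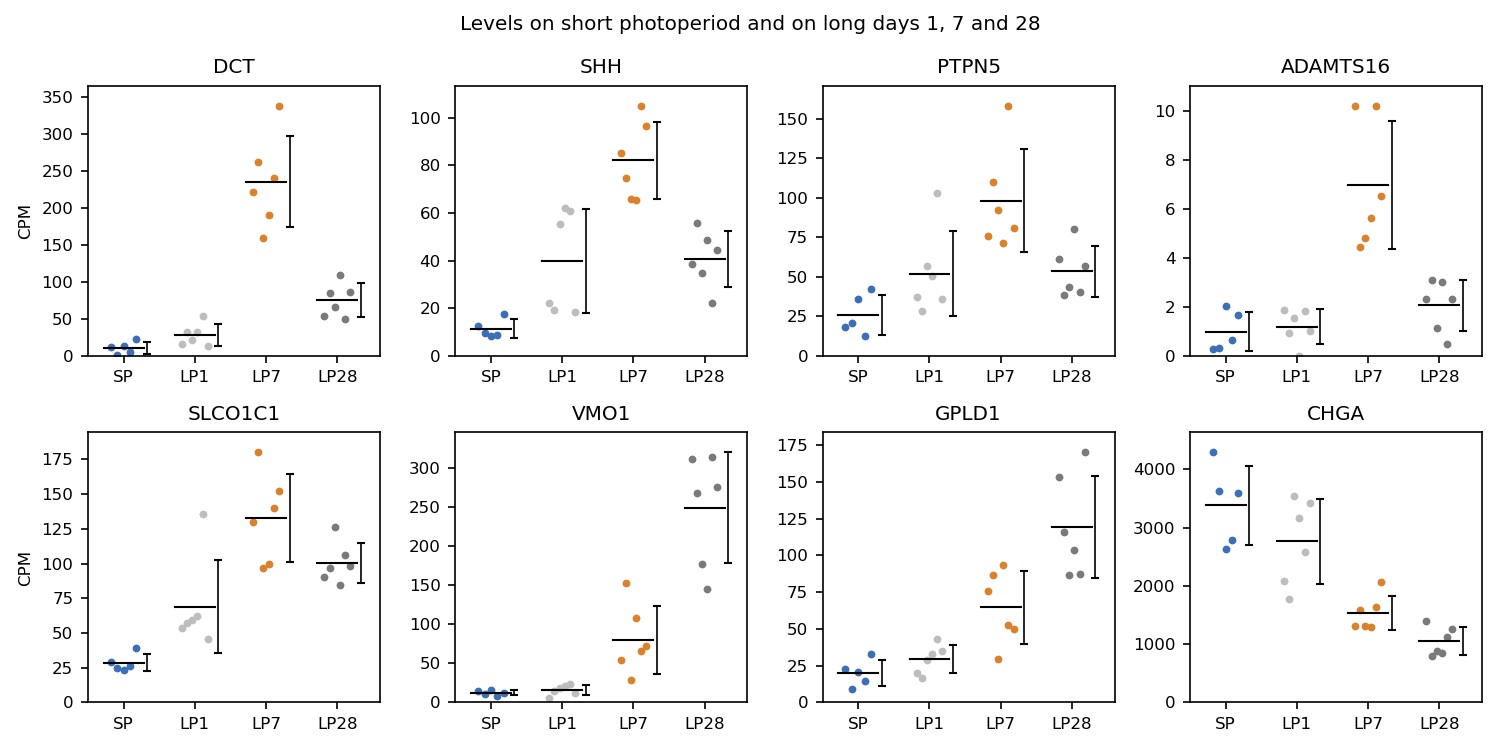
CPM (vertical axes, from 0) of 8 genes on SPs (5 samples) and at LP days 1, 7 and 28 (6 samples each), with a point per sample, the mean as a line and a bar of 1 SD to either side. DCT, SHH, PTPN5, ADAMTS16 and SLCO1C1 have their highest mean at day 7, VMO1 and GPLD1 at day 28, and CHGA its lowest at day 28. All 8 were called at day 7 against SPs, which favors a peak there, and only DCT was DE between days 7 and 28.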

How the data were processed

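RNA from PTs of castrate male sheep was sequenced by the authors as standard Illumina cDNA fragment libraries. The authors deposited, for each sample, raw read counts per Ensembl sheep gene. The processing notes name Bowtie, HTSeq and the build Oar_v3.1. Strand use was not given in the sources used here, so overlapping and antisense genes cannot be told apart, and reads shared by near-identical genes are uncertain. The file headers have the form of another counting program, and the one used remains unknown here.

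Counts were analyzed in R 4.3.3 with edgeR 4.0.16. The 11 SP and LP day 7 samples were TMM normalized, genes above 1 CPM in 5 or more samples were kept, and DE genes were called by the quasi-likelihood test at an FDR under 0.05. SEs were derived from the log2 fold change and its F statistic. CPM values were TMM normalized over all 23 samples, and total counts were 2741520 to 3691321. The floor was 3 counts. The fit was tested on simulated data with 5 against 6 samples. It recovered 28% of 1.5-fold, 52% of 2-fold, 94% of 4-fold and 96% of 8-fold changes, and 6.25% of its calls were unchanged genes. A gene that was not DE may therefore still have changed.

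Gene symbols came from identifier columns of the study's supplementary tables (1259 genes), and 29 symbols belong to more than 1 gene. Named are all DE genes with a symbol, 7 relay genes, DE list members and abundant list members. Other members near the threshold, the cell division genes and ARNTL were named after their values were seen. So were the clock genes with an odd and even division and the tallies by sample number. The comparison, gene lists and tests were chosen with earlier results of these data known. Alternatives used DESeq2 1.42.0, limma 3.58.1, other scaling, filters and covariates, and samples left out. No genome positions or sequences are given, because no matching reference was used here.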

Additional observations from a re-analysis of the deposited data

Results flagged for a closer look

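Of 58 groups of samples checked for a single value far from the rest, 3 had one, and chance would give about 1 in 20. MBNL2 had 28.1 CPM in SP sample 2, against 45 to 51.9 CPM in the other SP samples. Without that sample, its log2 fold change was 0.76, against 0.89 with all samples. EYA3 had 969 CPM in LP day 7 sample 1, against 30.9 to 381 CPM in the other LP day 7 samples, and its log2 fold change without sample 1 was 2.36, against 3.22. TSHR had 88.3 CPM in SP sample 5, against 10.3 to 30.8 CPM in the other SP samples, and a log2 fold change of 1.38 without it, against 0.73. EYA3 and TSHR also had unlike fold changes in odd- and even-numbered samples.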

How the results depend on the processing

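All alternatives kept the sign of the 40 DE genes wherever these were tested (39 with edgeR's own filter). The genes were chosen on the same samples, which favors a kept sign. The number of DE genes (higher and lower) moved from 40 (29 and 11) to 357 (242 and 115) with DESeq2, 226 (183 and 43) with the exact test, 96 (69 and 27) with robust estimation, 24 (17 and 7) with limma voom, 24 (23 and 1) with library size alone, 61 (42 and 19) with all 4 groups in a single fit, 334 (236 and 98) with parity, and 71 (48 and 23) with the GH1 level. It was 6 (4 and 2) with SP samples 2, 3 and 5 alone, 6 (5 and 1) at an FDR under 0.01, and 14 (11 and 3) when at least 2-fold changes were required. The parity fit rests on the division by number, which was chosen after values were seen. Upper quartile factors left 5 lower genes. Without each sample in turn, it ranged from 7 to 113 (6 to 83 higher, 1 to 30 lower). Alternatives added after seeing the data gave 106 (83 and 23) with the CRY1 level, 5 (4 and 1) with samples 1 to 3, 4 (4 and 0) with samples 4 to 6, 76 (47 and 29) without SP sample 5 and LP day 7 sample 6, 6 lower genes in even-numbered samples, and 22 (10 and 12) in odd-numbered samples without SP sample 5. In the file headers the numbering of alignments starts again at sample 4, so that samples 1 to 3 and 4 to 6 may be separate sets, and fits to a set alone hold fewer samples. The cause of the other moves was not tested.

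Same-numbered SP and LP day 7 samples correlated by -0.105 to 0.25 (3 of 5 best with their own number). These correlations do not decide whether the numbers are pairs. The labels name no pairs, and the main fit took none. A replicate block by sample number gave 178 DE genes (144 and 34), 35 of them among the 40, and 6 genes between LP days 7 and 28.

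Against LP day 1, day 7 had 3 DE genes, 14 with DESeq2, and 1 to 6 without each sample in turn. From day 7 to day 28 there was 1, and 36 with DESeq2, 6 with library size alone (which moved the median of all genes to -0.121), 8 with no filter, 4 with all groups, 10 with parity, and 1 to 5 without each sample in turn. TSHR turned to -1.10 in odd-numbered samples, but had 0.19 there without SP sample 5. MTNR1A turned to -0.17 in even-numbered samples, where its levels were near the floor. DCT, SHH, SLCO1C1, CHGA, CNTN1 and VMO1 stayed DE without any single sample. SORL1 and IREB2 missed the threshold in 10 of 11 such fits, SLC23A2 in 9, and NPSR1, AGER, ARNTL2 and GPLD1 in 8.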

Other observations

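TRH, the precursor of thyrotropin-releasing hormone and a marker in the neuron list, had 2.12, 11.2, 4.04, 3.89 and 9.59 CPM on SPs, and 27.6, 25.5, 9.02, 13.4, 16 and 42.5 CPM in LP day 7 samples 1 to 6. LP day 7 sample 3 fell within the SP range and the other 5 lay above it. TRH was not DE over all samples (log2 fold change 1.86, SE 0.43, FDR 0.068), and was DE with parity (1.78, SE 0.41, FDR 0.037) or the CRY1 level (1.99, SE 0.39, FDR 0.0342) in the fit. The 3 other tested neuron genes, NEFM (0.23, SE 0.14), STMN2 (-0.22, SE 0.20) and NEFH (0.09, SE 0.40), were not DE. TRH was picked after its values were seen.

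In granins and prohormone processing, 3 genes were DE and higher with parity in the fit, namely VGF (0.87, SE 0.20, FDR 0.0342), CPD (0.84, SE 0.20, FDR 0.0377) and the vesicle protein SYT4 (0.47, SE 0.11, FDR 0.0346), beside the lower CHGA and CHGB. With the CRY1 level in the fit none of these 3 was DE (FDR 0.105 for VGF, 0.0858 for CPD and 0.15 for SYT4). Both fits were chosen after values were seen, and their FDRs are a description. GADD45G, a stress-induced gene, had 43.4 ± 41.4 CPM (SD, n = 5) on SPs and 7.29 ± 6.02 CPM (SD, n = 6) at LP day 7 (-2.57, SE 0.79, FDR 0.158). Its SP samples had 2.65 and 1.73 CPM in samples 1 and 3, which were low in CRY1, and 74.1, 45 and 93.4 CPM in samples 2, 4 and 5. The LP day 7 samples had 1.27 to 2.61 CPM in odd and 10.3 to 15.1 CPM in even numbers. GADD45G was lower and DE with the CRY1 level in the fit (-2.05, SE 0.33, FDR 0.0159) and missed the threshold with parity (-2.96, SE 0.76, FDR 0.0558). Its own levels divided by CRY1 and by number, so these FDRs are descriptive.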
